A study of Mus musculus with 40 samples.

Results

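The genes of the proteasome subunits were examined in midbrain and spinal cord of mice given the neurotoxin MPTP and treated with SU-Eohyeol pharmacopuncture (SUEHP). All symbols made of Psma, Psmb, Psmc or Psmd followed by a number were taken, which gave 39 of 40213 gene symbols in the count tables. Of these, 37 had enough counts to be tested in either tissue. The testis form Psma8, with 1 to 9 counts per midbrain library and 1 to 6 per spinal cord library, and the thymus form Psmb11, with 0 to 1 and 0 to 3, did not.

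The series holds 40 libraries from male C57BL/6N mice, with 4 replicates in each of 5 groups per tissue. The mice were obtained at 8 weeks of age, and tissue was taken at the end of the experiment, after the injections described next. Con mice received saline and no MPTP. MPTP was injected intraperitoneally into the other mice, 4 times at 20 mg/kg, 2 hours apart, and 1 week later they received 4 injections, given 2 per week, at the acupoint GB34 of the leg: saline in MPTP-Veh and SUEHP, a herbal extract with deer antler, in MPTP-SU. MPTP-SU+S mice also received the CB1 cannabinoid receptor antagonist that the labels spell SR141714A (3 mg/kg), and MPTP-SU+T mice the PPARγ inhibitor T0070907 (5 mg/kg). MPTP is a systemic toxin model in which dopaminergic neurons of the midbrain are injured, and each library held a whole tissue, so fewer cells of a type and less RNA per cell cannot be told apart in any value below. Nothing in the labels says that replicates shared an animal, and p-values measure the spread between these samples. No group received SUEHP, the antagonist or the inhibitor without MPTP.

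The 26S proteasome is the complex that degrades proteins marked with ubiquitin. Its barrel-shaped core has outer rings of alpha subunits, which form the gate, and inner rings of beta subunits, of which Psmb5, Psmb6 and Psmb7 carry the proteolytic sites. In immune and interferon-stimulated cells these are replaced by Psmb8, Psmb9 and Psmb10. The cap has a base, with a ring of ATPases (Psmc1 to Psmc6) that unfold substrates and the large scaffold subunits Psmd1 and Psmd2, and a lid, whose Psmd14 removes the ubiquitin chain. Psmd4 is a ubiquitin receptor, and Psmd5, Psmd9 and Psmd10 are chaperones that help to assemble the base and are not part of the finished particle. Subunit genes are known to be induced together by the transcription factor NFE2L1 through antioxidant response elements when proteasome activity is low, and loss of proteasome function in the substantia nigra has long been discussed in Parkinson's disease.

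To show what lies at the start of these genes, promoter windows were taken from RefSeq (GRCm38.p6, a build earlier than the GRCm39 named for the reads), each running from 250 bases before to 50 after the start site. A window was held for 32 of the 39 genes. The core of the antioxidant response element, TGACNNNGC, was found on either strand in 5 of the 32 (15.6%, against 12.5% of all 27025 windows), in Psmb5, Psmb6, Psmc6, Psmd9 and Psmd12. The GC box GGGCGG was present in 19 (59.4% against 35.9%), CCAAT in 13 (40.6% against 37.9%) and the ETS-type string CCGGAAG in 9 (28.1% against 9.12%). The windows of these genes had a median GC content of 56.7%, against 52.7% for all windows, and its part in these shares was not tested. The strings are matches of letters in a short window and not sites of binding. The windows of 5 genes that recur below are printed with these strings in capitals on the strand of the gene, and a string on the other strand stands as its reverse complement. They are the catalytic subunits Psmb5 (chr14:54617946-54618245, minus strand) and Psmb6 (chr11:70525107-70525406, plus strand), which hold the antioxidant response core, Psmd4 (chr3:95042565-95042864, minus strand) and Psmc5 (chr11:106255935-106256234, plus strand), which were among the genes with the largest differences between groups, and the interferon-induced Psmb9 (chr17:34187281-34187580, minus strand), the lowest of the tested genes.
Psmb5: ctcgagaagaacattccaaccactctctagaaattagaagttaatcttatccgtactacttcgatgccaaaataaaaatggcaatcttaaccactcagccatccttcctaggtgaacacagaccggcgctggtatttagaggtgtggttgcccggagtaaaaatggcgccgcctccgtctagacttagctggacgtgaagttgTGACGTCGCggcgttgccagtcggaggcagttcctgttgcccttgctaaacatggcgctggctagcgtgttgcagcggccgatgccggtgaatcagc
Psmb6: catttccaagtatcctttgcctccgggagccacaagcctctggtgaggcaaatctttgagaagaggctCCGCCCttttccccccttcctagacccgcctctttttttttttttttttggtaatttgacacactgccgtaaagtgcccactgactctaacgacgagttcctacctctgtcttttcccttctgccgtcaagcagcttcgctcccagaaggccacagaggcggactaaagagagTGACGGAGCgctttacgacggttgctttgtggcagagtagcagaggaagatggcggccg
Psmd4: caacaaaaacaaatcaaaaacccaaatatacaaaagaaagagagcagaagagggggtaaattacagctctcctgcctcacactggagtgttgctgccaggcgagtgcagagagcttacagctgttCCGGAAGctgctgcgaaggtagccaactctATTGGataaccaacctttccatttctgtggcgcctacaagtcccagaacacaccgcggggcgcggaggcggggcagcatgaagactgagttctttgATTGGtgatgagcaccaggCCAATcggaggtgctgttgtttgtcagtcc
Psmc5: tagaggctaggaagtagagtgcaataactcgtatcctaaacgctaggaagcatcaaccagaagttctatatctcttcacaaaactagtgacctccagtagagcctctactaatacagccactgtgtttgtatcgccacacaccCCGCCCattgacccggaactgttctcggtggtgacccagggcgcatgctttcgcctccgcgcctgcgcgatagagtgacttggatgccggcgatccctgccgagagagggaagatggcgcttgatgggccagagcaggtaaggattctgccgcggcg
Psmb9: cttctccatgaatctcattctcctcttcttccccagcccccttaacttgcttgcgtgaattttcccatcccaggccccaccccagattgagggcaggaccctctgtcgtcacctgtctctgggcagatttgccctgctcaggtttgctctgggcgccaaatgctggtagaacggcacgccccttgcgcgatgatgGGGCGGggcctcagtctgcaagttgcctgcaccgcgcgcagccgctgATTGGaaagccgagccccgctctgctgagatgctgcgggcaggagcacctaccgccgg

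Counted from the start site, the antioxidant response core began at -47 in Psmb5 and at -9 in Psmb6. Psmb6 also held a GC box at -182, and Psmc5 held a GC box alone, at -107. In Psmd4 the ETS-type string lay at -125 and a CCAAT string at -95, with CCAAT strings also at 2 and 21, inside the transcript. In Psmb9 a GC box at -55 and a CCAAT string at -8 were found.

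Levels are given as CPM, the counts of a gene relative to a fixed library size, scaled with the trimmed mean of M-values, and between genes as CPM per kb of transcript. In Con midbrain, the ATPase gene Psmc5 had the highest level, 116 ± 4.31 CPM per kb (SD, n = 4), followed by the catalytic subunit Psmb7 at 90 ± 2.73. The 31 highest genes lay between 20.4 ± 1.25 (Psmd13) and that value. The core and cap genes thus fell in a band, and the next 4 genes were 3 assembly chaperones (Psmd5 at 9.87, Psmd10 at 9.36 and Psmd9 at 7.19) and the induced catalytic subunit Psmb10 at 9.68 ± 1.62. The other induced subunits were far lower, Psmb8 at 1.3 ± 0.485 and Psmb9 at 0.491 ± 0.22, with the testis form Psma8 at 0.183 and the thymus form Psmb11 at 0.00375. Each induced subunit was therefore below the constitutive subunit whose place it takes (Psmb5 34.2 ± 3.54, Psmb6 62.1 ± 1.35 and Psmb7 90 ± 2.73), with no overlap of the replicates. The deubiquitinase subunit Psmd14 was at 43.1 ± 0.889 and Psmd4 at 72.7.

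The order was close in Con spinal cord. Psmc5 was again highest at 143 ± 14.1 CPM per kb, followed by Psmb7 at 100 ± 10.6, and the same 8 genes held the lowest places. Many neighbours in this order did not differ beyond their spread, as with Psmb6 at 63.2 ± 6.68 and Psmd7 at 65.7 ± 5.84. Psmb8 was at 1.84 ± 0.463, Psmb9 at 0.57 ± 0.14, Psmb10 at 9.24 ± 1.73, Psmb5 at 31 ± 5.07 and Psmd14 at 44.3.

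**Figure D1:**
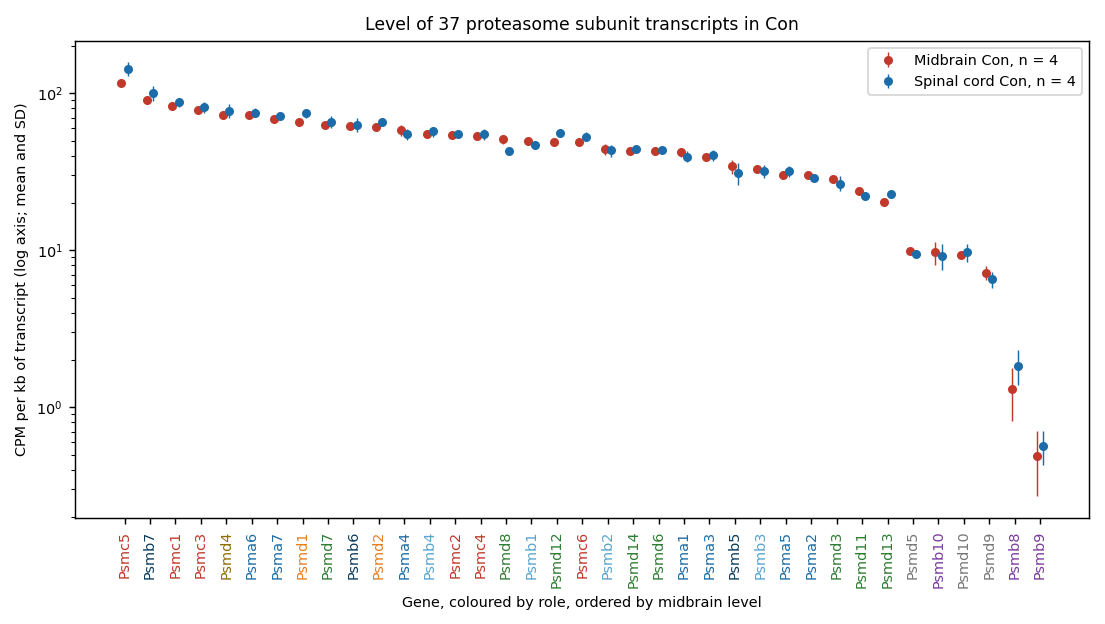
CPM per kb of transcript (log axis) of the 37 tested genes in Con midbrain (red) and Con spinal cord (blue), as mean and SD of 4 libraries, with gene names coloured by role. Most genes lie between 20.4 and 143 CPM per kb, and the assembly chaperones and the induced catalytic subunits Psmb8, Psmb9 and Psmb10 lie below them in both tissues.

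Before groups are compared, it must be said that midbrain MPTP-Veh replicate 4 stood apart. The library totals were 11958200 to 16639823 counts in midbrain and 14642808 to 16615378 in spinal cord, and this library had the lowest. Mitochondrial genes took 1.35% of its counts and 9.92% to 17.5% in the other midbrain libraries. Its lowest rank correlation with another MPTP-Veh library was 0.8995, while within every other group all pairs were at 0.9797 or above. The subunit genes took 0.479% of its counts and 0.229% to 0.304% in the other 39 libraries. In it 23 of the 37 tested subunit genes were above all 19 other midbrain libraries and 11 were below all of them, against 34.1% and 36.5% of all genes. No other midbrain library held the highest value for more than 4 of these genes or the lowest for more than 6. Replicate 4 was kept in that count, so the 23 and 11 values it held could not fall to the others.

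The direction differed between subunits. Psmc5 was at 592 CPM in this library and at 171 to 205 in MPTP-Veh replicates 1 to 3, Psmd4 at 415 against 99.8 to 126, Psmd13 at 175 against 45.1 to 52.7, and Psmb10 at 78.6 against 13.9 to 19.7. The alpha subunit Psma2 was at 37.1 against 86.8 to 88.9, the ATPase gene Psmc6 at 50.2 against 109 to 113, and Psmd14 at 34.8 against 66.3 to 70.5. These genes are parts of the same particle and yet lay on opposite sides of their range. Across the 37 genes the difference went with GC content of the transcript (Spearman's rho 0.587, and 0.621 across 15252 genes, as a description across genes of 1 library). Of the 18 genes above the median GC content, 16 were higher in this library than the mean of replicates 1 to 3, with a median log2 ratio of 1.16, and of the 19 at or below it 9 were higher, with a median of -0.31. Marker sums differed too: 6 oligodendrocyte genes summed to 35400 CPM against 11000 to 13600 in the other MPTP-Veh midbrain libraries, 4 blood genes to 2520 against 228 to 359, 7 microglial genes to 349 against 141 to 160, and 6 neuronal genes to 3620 against 4640 to 5000. The part of any of these in the subunit values was not tested. Midbrain differences between MPTP-SU and MPTP-Veh are therefore given with and without this library.

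**Figure D2:**
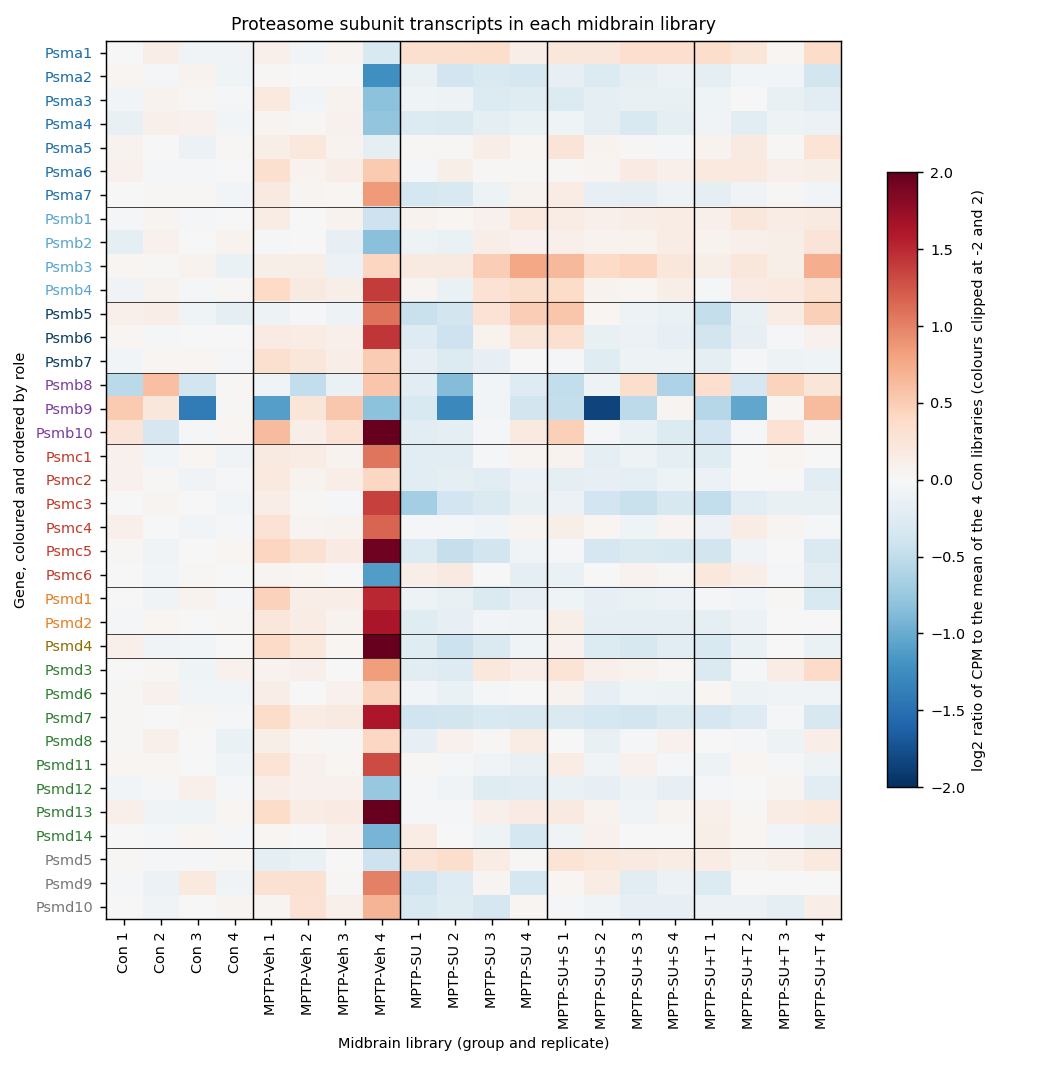
Each square is the log2 ratio of a gene's CPM in 1 midbrain library to the mean of the 4 Con libraries, with the 37 tested genes in rows ordered by role and the 20 libraries in columns. MPTP-Veh replicate 4 carries the darkest red and blue column, with Psmc5 at 592 CPM and Psma2 at 37.1, and the columns of the 3 groups given SUEHP are mostly pale.

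The midbrain comparison of MPTP-SU with MPTP-Veh asks what SUEHP at GB34 did in MPTP-treated mice. In MPTP-SU, 15 subunit genes were lower and 2 were higher by edgeR's quasi-likelihood test at a Benjamini-Hochberg adjusted p-value below 0.05, where 12.8% of all 16629 tested genes were lower and 7.38% higher (20.1% in all). Past a fold change of 1.5, 9 were lower (9.1% of all genes). The median log2 fold change of the 37 genes was -0.34 and that of all genes 0.000688, and 30 of the 37 were negative. Without MPTP-Veh replicate 4, 14 were lower and 2 higher (8.07% and 6.55% of all genes, 14.6% in all), the median was -0.20, and 1 gene was past 1.5-fold (2.09%). Between these fits 12 calls were shared. Those of Psma7, Psmb10, Psmc1, Psmd11 and Psmd13 were lost without the library, and those of Psma2, Psma3, Psma4 and Psmd12 were gained.

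Every base gene called in this comparison was lower. Psmc5, an ATPase, was at 156, 145, 154 and 157 CPM in Con, 205, 188, 171 and 592 in MPTP-Veh and 126, 111, 119 and 146 in MPTP-SU. All 4 MPTP-SU values lay below all MPTP-Veh values, also without the fourth. The log2 fold change was -1.20 ± 0.28 (SE, adjusted p = 0.0125), and -0.58 without that library (adjusted p = 0.0015). Psmc2 was at 102, 98.3, 91.6 and 94 CPM in Con, 111, 101, 106 and 128 in MPTP-Veh and 83.6, 85.1, 82.4 and 89.4 in MPTP-SU. Again no values of the 2 MPTP groups overlapped, and the difference was small and even, -0.39 ± 0.08 (adjusted p = 0.00929), or -0.32 without the library (adjusted p = 0.00359). Psmc3 fell by 0.87 on the log2 scale (adjusted p = 0.0201) and by 0.40 without the library (adjusted p = 0.018). Psmc1 fell by 0.53 (adjusted p = 0.0343), a call that was lost without the library (-0.24, adjusted p = 0.0701). Psmc4 at -0.49 (adjusted p = 0.0526) and Psmc6 at 0.21 (adjusted p = 0.376) did not pass, and without the library they were at -0.16 (adjusted p = 0.168) and 0.0031 (adjusted p = 0.989). In all, 4 of 6 ATPase genes were lower with every library (12.8% of all genes) and 3 of 6 without the fourth (8.07%).

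Both scaffold genes of the base were lower. Psmd1 was at 206, 195, 215 and 201 CPM in Con, 282, 223, 223 and 581 in MPTP-Veh and 191, 185, 168 and 182 in MPTP-SU, with a log2 fold change of -0.85 ± 0.21 (adjusted p = 0.016), and -0.42 without the fourth MPTP-Veh library (adjusted p = 0.0037). Psmd2 fell by 0.81 (adjusted p = 0.03) and by 0.27 (adjusted p = 0.0248). The ubiquitin receptor gene Psmd4, with 126, 112, 99.8 and 415 CPM in MPTP-Veh and 82.4, 71.6, 79.7 and 91.3 in MPTP-SU, differed by -1.21 ± 0.31 (adjusted p = 0.018), and -0.47 without the library (adjusted p = 0.00613). Its Con values of 104, 92.3, 93.7 and 97.8 lay above all MPTP-SU values and overlapped the lowest of MPTP-Veh.

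Of the 8 lid genes, 3 were lower (12.8% of all genes), or 2 without the fourth library (8.07%). Psmd7, a scaffold partner of Psmd14, was at 101, 99.3, 102 and 97 CPM in Con, 129, 111, 113 and 307 in MPTP-Veh, and 75.7, 77, 80.4 and 80 in MPTP-SU. The 3 groups did not overlap. It fell by 1.08 ± 0.23 (adjusted p = 0.00887), and without the library it had the largest fall, -0.59 (adjusted p = 9.47e-05), the only one still past 1.5-fold. Psmd11 (-0.58, adjusted p = 0.0429) and Psmd13 (-0.91, adjusted p = 0.0433) passed with all libraries, and without the fourth they did not and were at -0.19 and -0.17. Psmd14 was at 68.2, 66.3, 70.5 and 34.8 CPM in MPTP-Veh and 73.5, 66.7, 61.9 and 52 in MPTP-SU and did not pass (0.08 ± 0.16, adjusted p = 0.717). Without the fourth library its difference turned to -0.10 (adjusted p = 0.48).

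In the core, few genes passed. Psmb7, which carries the trypsin-like site, was at 130, 122, 114 and 148 CPM in MPTP-Veh and 93.2, 86.9, 93.7 and 104 in MPTP-SU, against 101, 107, 107 and 103 in Con. It had the smallest p-value of the subunit genes, with a log2 fold change of -0.45 ± 0.09 (adjusted p = 0.00683), or -0.37 without the fourth library (adjusted p = 0.00221). The other constitutive catalytic genes overlapped between the groups. Psmb5 was at 28.5, 30.2, 28.7 and 65.2 CPM in MPTP-Veh and 22.6, 23.8, 37.5 and 43.4 in MPTP-SU (-0.26 ± 0.28, adjusted p = 0.496), and Psmb6 at 55.4, 54.6, 52.9 and 133 and 41.3, 37.2, 51.9 and 58.4 (-0.64 ± 0.24, adjusted p = 0.0597). Without the fourth library the difference of Psmb5 turned to 0.13 (adjusted p = 0.752) and that of Psmb6 was -0.20 (adjusted p = 0.359). None of the 4 structural beta genes passed in either fit.

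Of the induced catalytic genes, Psmb10 had the largest fall of all subunits, -1.38 ± 0.40 (adjusted p = 0.0276), but this rested on the fourth MPTP-Veh library: its values were 19.7, 13.9, 15.5 and 78.6 CPM in MPTP-Veh and 10.8, 11.2, 12.3 and 14.5 in MPTP-SU, and without that library the difference was -0.42 (adjusted p = 0.142). Psmb8 lay between 1.5 and 3.11 CPM in MPTP-Veh and between 1.16 and 2.03 in MPTP-SU (-0.32 ± 0.30, adjusted p = 0.438, and -0.10 without the library, adjusted p = 0.87). Psmb9 was under 1 CPM in every midbrain library but 1 (-0.34 ± 0.49, adjusted p = 0.616, and -0.50 without the library, adjusted p = 0.567), and its standard error was larger than the difference.

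In the alpha ring 1 gene was higher. Psma1 was at 54.5, 48.7, 52.7 and 41 CPM in MPTP-Veh and 63.7, 63.2, 64.6 and 55.8 in MPTP-SU, without overlap (0.33 ± 0.10, adjusted p = 0.0305, and 0.25 without the fourth library, adjusted p = 0.047). Psma7 was lower (-0.48 ± 0.15, adjusted p = 0.0328, and -0.26 without the library, adjusted p = 0.0793). Psma2, Psma3 and Psma4, which were low in the fourth library, did not pass with it, at -0.07 to -0.11, and were lower without it, at -0.29 (adjusted p = 0.0194), -0.25 (adjusted p = 0.0322) and -0.27 (adjusted p = 0.0148).

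The assembly chaperones moved in opposite directions. Psmd5 was at 38, 39.7, 43.5 and 32.6 CPM in MPTP-Veh and 52.1, 55.7, 47.9 and 44.2 in MPTP-SU, and it rose by 0.38 ± 0.09 (adjusted p = 0.0149), or 0.31 without the fourth library (adjusted p = 0.011). Psmd9 was lower (-0.68 ± 0.17, adjusted p = 0.0161, and -0.44, adjusted p = 0.0222), as was Psmd10 (-0.51 ± 0.13, adjusted p = 0.0182, and -0.36, adjusted p = 0.0277).

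Values of MPTP-SU lay entirely below those of MPTP-Veh for 13 subunit genes (11.3% of all genes) and entirely above them for 2 (10.6%), for which the exact permutation test gave p = 0.0286, the smallest that 4 against 4 allow. The calls depended on the libraries fitted. From the 8 libraries of the comparison alone no gene passed, and from these without MPTP-Veh replicate 4 there were 9 falls (shares of all genes not computed). Psmb7, Psmc2, Psmc5, Psmd1 and Psmd7 passed in 17 of 18 alternatives, all but the fit on the 8 libraries. A change of tissue markers ran beside this comparison. The midbrain genes En1, En2, Pax5 and Otx2 summed to 51.7 to 58.4 CPM in MPTP-Veh replicates 1 to 3 and 90.1 in the fourth. Their sums were 27.5 to 36.1 in MPTP-SU and 25.8 to 54.8 in Con, with none of them at 0 throughout a group. En1 was lower in MPTP-SU by 1.75 (adjusted p = 0.00817) and, without the library, by 1.22 (adjusted p = 0.00729). The dopaminergic genes Th, Slc6a3, Slc18a2 and Ddc overlapped between the groups. They summed to 131 to 272 CPM in Con, 109 to 312 in MPTP-Veh and 130 to 328 in MPTP-SU. The long transcript Gm26917 took 0.838% to 10.3% of counts in MPTP-Veh, 3.84% to 14.3% in MPTP-SU and 0.563% to 1.95% in Con. The part of the markers or of Gm26917 in the subunit values was not tested.

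**Figure D3:**
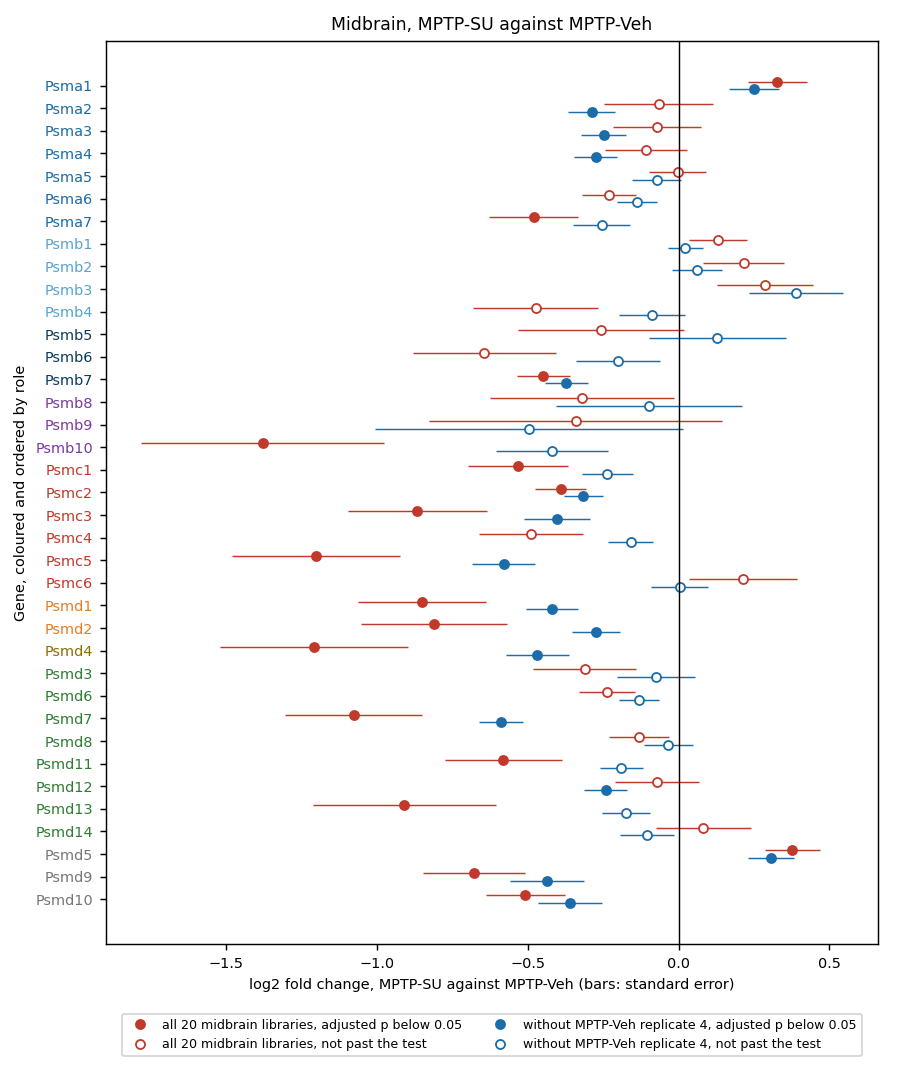
Log2 fold change of MPTP-SU against MPTP-Veh in midbrain with its standard error for the 37 tested genes, fitted with all 20 libraries (red) and without MPTP-Veh replicate 4 (blue), filled where the adjusted p-value was below 0.05. Most points lie left of 0, and those of Psmc5, Psmd4, Psmd7 and Psmb10 move towards 0 when that library is left out.

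The partners of the particle were described by lists of related genes in the same fit. For each list here and in the next paragraph, the shares of all genes were 12.8% lower and 7.38% higher (20.1% in all). Without the fourth MPTP-Veh library they were 8.07% and 6.55% (14.6% in all). The lists are short, and none was tested as a set against these shares. Of 5 assembly factors of the core 1 was lower, Pomp, which helps to close the beta rings (-1.03, adjusted p = 0.0196, and -0.42 without the fourth library, adjusted p = 0.00638). Of 5 activators and inhibitors, the 11S activator genes Psme1 (-0.70, adjusted p = 0.0162) and Psme2 (-0.82, adjusted p = 0.0175) were lower, and Psme4, the gene of the large single-chain activator, was higher (0.48, adjusted p = 0.0167). These 3 passed in both fits, and without the library they were at -0.41, -0.43 and 0.37. Of 12 receptors, shuttles and deubiquitinases 3 were lower and 2 higher, or 2 and 2 without the library: Sem1, a small lid subunit whose symbol the rule did not take, fell by 1.00 (adjusted p = 0.00913), or by 0.57 without the library (adjusted p = 0.000547), while the ubiquitin ligase Ube3c (0.42, adjusted p = 0.0315) and the shuttle Ubqln2 (0.40, adjusted p = 0.0329) rose, by 0.28 and 0.26 without it.

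Of 6 genes of ubiquitin and its activation, Rps27a, which encodes a ubiquitin fused to a ribosomal protein, was lower (-0.56, adjusted p = 0.0339, and -0.22 without the library, adjusted p = 0.0262), and Uba6, an activating enzyme, was higher (0.70, adjusted p = 0.0422), though not without the library (0.47, adjusted p = 0.0633). Of 7 genes of transcriptional control and processing 3 were lower, or 2 without the library, and Nfe2l1 itself had a log2 fold change of -0.52 (adjusted p = 0.04), or -0.22 without it (adjusted p = 0.106). Ufd1 and Vcp, which extract ubiquitinated proteins from membranes and complexes, were at -0.28 (adjusted p = 0.0456) and -0.47 (adjusted p = 0.0456), or at -0.35 (adjusted p = 0.00749) and -0.16 (adjusted p = 0.0483) without it. Of 9 genes of antigen processing and interferon response only Tapbp was lower in either fit (-1.06, adjusted p = 0.0183, and -0.47 without the library, adjusted p = 0.0118). The CCT chaperonin, another complex of housekeeping genes that folds actin and tubulin, had 3 of 8 genes lower, Cct5 at -0.50 (adjusted p = 0.0275), Cct7 at -0.53 (adjusted p = 0.0358) and Tcp1 at -0.47 (adjusted p = 0.0419), with a median of -0.08 against -0.34 for the proteasome genes. Without the library 2 of 8 were lower, these 3 genes were at -0.25, -0.24 and -0.18, and the medians were -0.14 and -0.20.

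**Figure D4:**
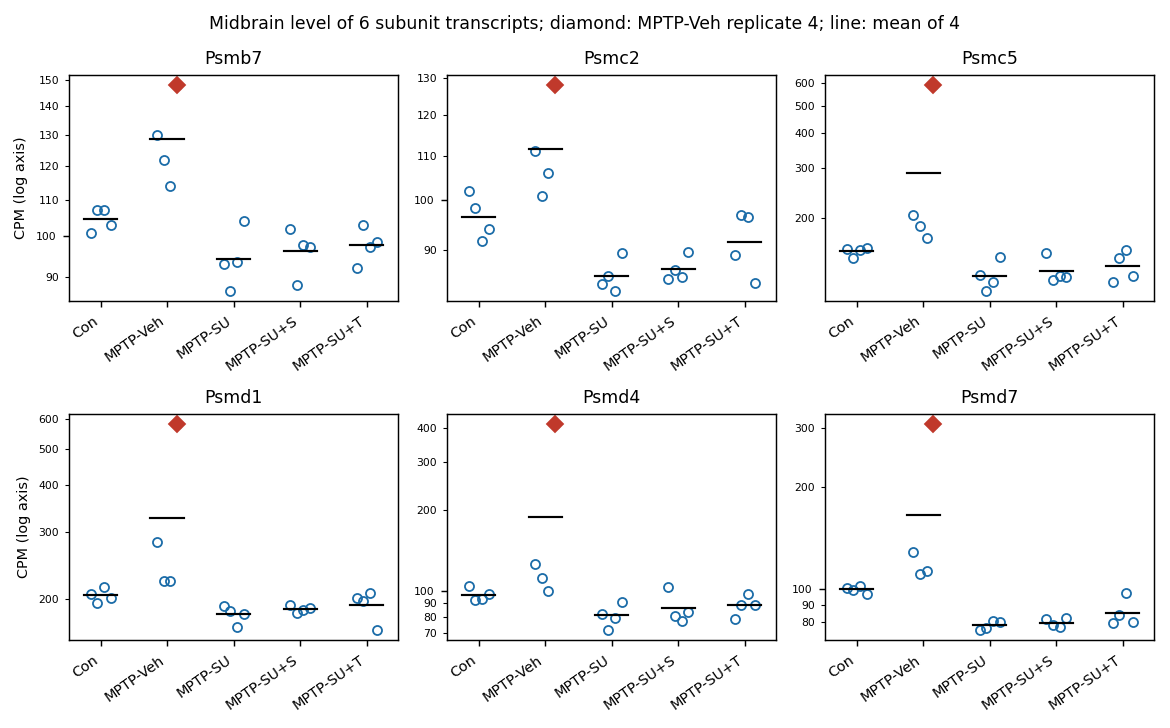
CPM (log axis) of Psmb7, Psmc2, Psmc5, Psmd1, Psmd4 and Psmd7 in the 20 midbrain libraries by group, with the mean of 4 as a line and MPTP-Veh replicate 4 as a diamond. The diamond is the highest point in each panel (592 CPM for Psmc5), and the MPTP-SU points lie below all MPTP-Veh points.

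MPTP-Veh against Con in midbrain compares mice with and without MPTP, and it shares the MPTP-Veh libraries with the comparison above. The choroid plexus genes Ttr, Folr1, Kl and Clic6 summed to 11.1 to 1220 CPM in Con and to 7.94 to 21.5 in MPTP-Veh. These sums overlapped, and their part in the subunit values was not tested. No subunit gene passed edgeR's test, where 0.018% of all genes did. At an unadjusted p-value below 0.05, 19 were higher and none lower (15.6% of all genes higher), limma-voom called 0 and DESeq2 called 8, all higher. The median was 0.29. Without the fourth MPTP-Veh library no gene passed either (0.00594% of all genes), 8 were higher at an unadjusted p-value below 0.05 (5.32%), and the median was 0.10. The largest rise was that of Psmb10, 1.32 ± 0.40 (adjusted p = 0.13), which was 0.36 without that library (adjusted p = 0.451). The largest fall was that of Psma2, -0.22, and it rested on that library. Psma2 averaged 87.45 CPM in MPTP-Veh replicates 1 to 3 and 87.27 in Con, and was at 37.07 in the fourth. Psmd7 was at 0.72 (adjusted p = 0.13). It averaged 117.8 CPM in replicates 1 to 3 and 99.96 in Con, and was at 307.4 in the fourth. All MPTP-Veh values lay above all Con values for 10 subunit genes (6.37% of all genes), among them Psmb7, Psmc5, Psmd1 and Psmd7 by the values given above. Leaving out MPTP-Veh replicate 3, which keeps the fourth library, gave 12 rises. Shares of all genes were not computed for that fit or for DESeq2 and limma-voom.

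MPTP-SU against Con compares the treated mice with mice that never had MPTP, and shares libraries with both comparisons above. None of the subunit genes passed (1.25% of all genes), and 4 had an unadjusted p-value below 0.05 (16.1%), while DESeq2 called 1 and limma-voom 0. When MPTP-Veh replicate 4, which is in neither group, was left out of the fit, 5 were lower and 2 higher (8.65% and 7.04% of all genes). Lower were Psmd7 (-0.35, adjusted p = 0.00279), Psma2 (-0.29, adjusted p = 0.0142), Psmc3 (-0.36, adjusted p = 0.0228), Psma4 (-0.22, adjusted p = 0.0305) and Psmc2 (-0.18, adjusted p = 0.0491). Psma1 (0.28, adjusted p = 0.0174) and Psmb3 (0.43, adjusted p = 0.0465), a structural beta gene, were higher. Without overlap, 8 genes were below Con (10.9%) and 2 above (8.73%). The largest fall by size was that of Psmb9, -0.42, which did not pass.

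The antagonist groups ask whether blocking CB1 or PPARγ alters what is seen with SUEHP, and both are compared with the same MPTP-SU libraries. In midbrain, none of the 37 genes passed edgeR's test with either agent (0% of all genes in both), DESeq2 and limma-voom called 0 as well, and none had an unadjusted p-value below 0.05 (1.65% and 1.7% of all genes). Psmd7, for example, was at 81.4, 78.1, 77.2 and 82 CPM in MPTP-SU+S and 79.3, 83.6, 97.2 and 79.9 in MPTP-SU+T, which overlapped the MPTP-SU values. The median log2 fold change was 0.04 in MPTP-SU+S, from -0.12 (Psmb9) to 0.20 (Psmd9), and 0.07 in MPTP-SU+T, from -0.11 (Psmb3) to 0.52 ± 0.30 (Psmb8). In no alternative did a gene pass, and in the fit without MPTP-Veh replicate 4, which is in neither arm, the medians were also 0.04 and 0.07. This does not show that the groups were alike.

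In spinal cord, for MPTP-Veh against Con, 0 of 37 passed edgeR's test (0% of all genes) and 0 passed with DESeq2 or limma-voom, while 12 had an unadjusted p-value below 0.05, all lower (6.68% of all genes). They included Psmd1 (-0.17 ± 0.05, adjusted p = 0.225), Psmd2, Psmd4 (-0.20 ± 0.07, adjusted p = 0.25), Psmb6 (-0.23 ± 0.07, adjusted p = 0.243) and 3 ATPase genes. The median was -0.09 with 35 of 37 negative, and MPTP-Veh lay entirely below Con for 5 (2.47%). Psmd4 was at 115, 90.1, 104 and 103 CPM in Con and at 103, 84.9, 84.3 and 88 in MPTP-Veh. These groups overlapped, as Con replicate 2 was the lowest of its group, and without that library 5 genes were lower (share of all genes not computed). Gm26917 took 8.04% of counts in that library and 0.704% to 3.34% in the other Con spinal cord libraries, and its part was not tested. The largest fall was that of Psmb8, -0.34 ± 0.22, and the largest rise that of Psmb9, 0.10 ± 0.37, neither past the test. Mitochondrial genes took 12.4% to 14.2% of counts in Con and 14.3% to 16.4% in MPTP-Veh, oligodendrocyte genes summed to 18200 to 20300 and to 20500 to 21200 CPM, and astrocyte genes to 2510 to 3100 and to 3140 to 3350. None of these overlapped, and their part in the subunit values was not tested.

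The other spinal cord comparisons gave no call by edgeR, DESeq2 or limma-voom. In MPTP-SU against MPTP-Veh (0% of all genes called), 0 genes had an unadjusted p-value below 0.05 (3.81%), and the log2 fold changes ran from -0.10 (Psmb9) to 0.10 (Psmd11) with a median of 0.02. Psmd7, for instance, was at 98.7, 91.4, 87.4 and 91.4 CPM in MPTP-Veh and at 98, 98.1, 89.3 and 93.8 in MPTP-SU. In MPTP-SU+S against MPTP-SU (0% called, 5.49% at the unadjusted p-value), 0 genes had an unadjusted p-value below 0.05, and the values ran from -0.12 (Psmb5) to 0.14 (Psmb9). In MPTP-SU+T against MPTP-SU (0.036% called), 1 did and was lower (6.01%), Psmc6 at -0.12 ± 0.05, and the largest rise was that of Psmd13, 0.14 ± 0.07. In MPTP-SU against Con (0% called), 8 were lower at an unadjusted p-value below 0.05 (4.63%), and 36 of 37 were negative, from -0.30 (Psmb8) to 0.0032 (Psmd12).

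The difference between MPTP-SU and MPTP-Veh was also tested between the tissues, as an interaction in 1 fit of all 40 libraries. In this test 15 subunit genes had a more negative difference in midbrain and 2 a more positive (10.7% and 6.11% of all genes), and without midbrain MPTP-Veh replicate 4 these were 12 and 2 (5.99% and 5.51%). Psmd7 had an interaction of -1.11 ± 0.24, or -0.61 without that library (adjusted p = 0.000147), Psmc5 of -1.24 ± 0.29, or -0.61 (adjusted p = 0.00118), and Psmd1 of -0.92 ± 0.22, or -0.48 (adjusted p = 0.00127). From the 16 libraries of the comparison alone no gene passed.

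Levels were then compared between the tissues within each group. In Con, Psmd8, a lid gene, was higher in midbrain (13.9% of all genes higher) and no subunit gene was lower (15.9%). It was at 80.3, 84.3, 78.1 and 72 CPM in midbrain and at 65.6, 66.3, 65.4 and 65.6 in spinal cord, a log2 difference of 0.26 ± 0.07 (adjusted p = 0.00515). Without midbrain MPTP-Veh replicate 4, which is not in this comparison but in the fit, Psmd8 remained and 4 genes were lower in midbrain (21.3% lower, 19.2% higher): Psmc5 (-0.30, adjusted p = 0.00397), Psmd12 (-0.20), Psmd1 (-0.18) and Psmb7 (-0.16). In MPTP-Veh 23 were higher and none lower (27.3% and 24.2%), 13 of them past 1.5-fold (17.3%), and without the fourth library 18 and none (21.3% and 22.7%). Psmb10 had the largest such difference, 1.59 ± 0.31, or 0.64 without the library (adjusted p = 0.00134).

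In the 3 groups given SUEHP the calls fell on both sides. In MPTP-SU 5 were higher and 1 lower in midbrain (17% and 18.7% of all genes), or 8 and 7 without the fourth MPTP-Veh library (24% and 23.4%). In MPTP-SU+S there were 6 and 1 (15.8% and 18.5%), or 11 and 6 (22.8% and 23.2%), and in MPTP-SU+T 7 and 0 (16.6% and 18.2%), or 9 and 6 (23% and 23.1%). Psma1 was higher in midbrain in these 3 groups, by 0.46 to 0.50, and Psmc5 was lower in all 3 in the fit without that library, by 0.34 to 0.45.

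Psmd8 was the only subunit gene that passed in the same direction in all 5 groups (15% of all genes did). Its midbrain level of 70.2 to 104 CPM was above its spinal cord level of 60.4 to 68.9 in every library, and the log2 difference was 0.26 in Con and 0.47 in MPTP-Veh. With SUEHP it was 0.35 (MPTP-SU), 0.31 with the CB1 antagonist and 0.25 with the PPARγ inhibitor, below 1.5-fold throughout. Each group was a separate set of libraries. In each tissue Psmd8 itself did not pass in any treatment comparison by edgeR, with a midbrain difference of -0.13 ± 0.10 in MPTP-SU against MPTP-Veh (adjusted p = 0.329). The labelled tissues held their defining genes: 6 Hox genes of the spinal cord summed to 311 to 335 CPM in Con spinal cord and to at most 0.0596 in Con midbrain, and in midbrain MPTP-Veh replicate 4 to 1.41.

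**Figure D5:**
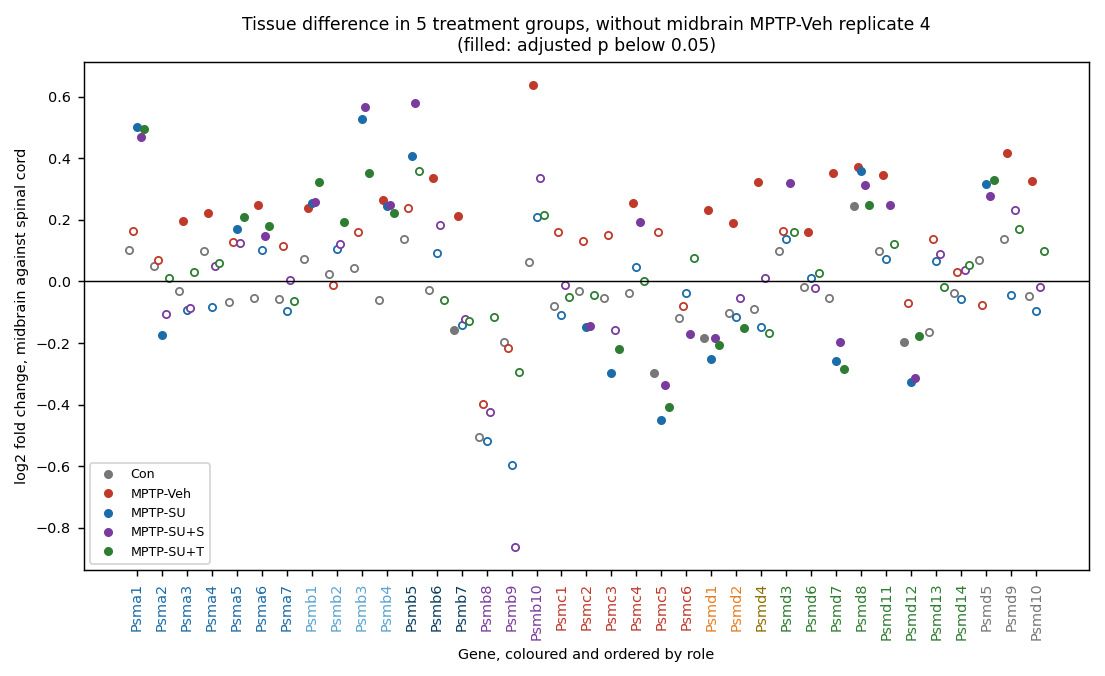
Log2 fold change of midbrain against spinal cord for the 37 tested genes in each of 5 groups, fitted without midbrain MPTP-Veh replicate 4 and filled where the adjusted p-value was below 0.05. Psmd8 is filled and above 0 in all 5 groups, while MPTP-Veh points (red) lie mostly above 0 for genes such as Psmd1 and Psmd7 whose other points lie below it.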

How the data were processed

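Poly(A) RNA of midbrain and spinal cord was sequenced in paired ends (CORALL RNA-Seq V2 libraries). Per the labels and the study's methods, fastp served the authors for trimming, STAR for alignment and Salmon for gene quantification, on GRCm39 (versions not given in the sources used here). The deposited values are estimated counts per gene symbol, as whole numbers, for 40213 symbols in each of 40 libraries. No column was left without a sample (0).

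Symbols were taken by the rule on names. The members and the related lists were chosen with earlier results of these data known. Genes passing edgeR's default low-count filter were scaled by the trimmed mean of M-values and tested with edgeR's quasi-likelihood test (edgeR 4.0.16, R 4.3.3), separately in midbrain (16629 genes) and spinal cord (16682 genes), with all 20 libraries of a tissue in 1 fit. Tissues were compared in a fit of all 40 libraries (17426 genes). P-values were adjusted over all tested genes after Benjamini and Hochberg, with a threshold of 0.05. Fold changes came from edgeR's fit with its default prior count. A prior count of 2 was used for log2 CPM values, which served the overlap of groups, the permutation tests and the ratios between libraries. Exact permutation tests were two-sided. Calls were tried on simulated counts with planted changes of at least 2-fold. Smaller changes and an outlying library were not simulated, so this does not bear on the smaller differences above.

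Alternatives were DESeq2 1.42.0, limma-voom (limma 3.58.1), other scalings and filters, removal of a GC content and length trend, the libraries of a comparison alone, a block for replicate number, a fold threshold of 1.5 and leaving out each library. A prior count of 0.5 was tried for log2 levels and not for the calls. Fits that drop midbrain MPTP-Veh replicate 4 from a comparison it is not part of, or from the libraries of a comparison alone, were chosen after seeing the data.

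Named throughout were the catalytic beta pairs, Psma8, Psmb11, Psmd4 and Psmd14, then the 10 members with the smallest p-values among calls, the largest rise and fall of a treatment comparison, and the 3 smallest p-values of each related list. Some genes of this rule are left out of the tissue comparisons. Other genes were named after their values were seen. Psmb8, Psmb9, Psma8 and Psmb11 had the lowest levels.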

Additional observations from a re-analysis of the deposited data

Results flagged for a closer look

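For 22 named subunit genes, and besides them for the mitochondrial share, each group of 4 libraries was screened for a lone high or low value by Dixon's ratio, the gap to the nearest library over the range of the group against its 95% critical value. Chance passes about 1 in 20 groups. In midbrain MPTP-Veh 11 of the 22 genes passed, and in each of the other groups 0 to 3 of 22. No share over all genes is given for this screen, and the genes were named partly by p-values of comparisons that hold replicate 4. That library lay above all 19 other midbrain libraries for 34.1% of all genes and below them for 36.5%, so extreme values in it were not confined to subunit genes. Of the 37 tested subunit genes, 23 lay above and 11 below. Whether its flags are particular to subunit genes was not tested. In midbrain MPTP-Veh the ratios were 0.931 for Psmb5, 0.95 for Psmb6, 0.911 for Psmd14, 0.837 for Psmd4, 0.832 for Psma7, 0.882 for Psmc1, 0.886 for Psmc3, 0.855 for Psmc5, 0.885 for Psmd13, 0.899 for Psmd2 and 0.853 for Psmd7, and in each of them replicate 4 was the lone library. Elsewhere in midbrain they were 0.857 for Psma1 in MPTP-SU, 0.893 for Psmb6, 0.836 for Psmc5 and 0.952 for Psmd2 in MPTP-SU+S, and 0.957 for Psmd9 in MPTP-SU+T. In spinal cord they were 0.833 for the mitochondrial share and 0.868 for Psmb8 in Con, 0.866 for Psmb10 in MPTP-Veh, and 0.862 for Psma1 and 0.916 for Psmd1 in MPTP-SU+T.

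The difference between MPTP-SU and MPTP-Veh was itself different between the tissues for 17 subunit genes (interaction in edgeR's quasi-likelihood fit of 40 libraries, adjusted p below 0.05). The log2 interaction was positive for Psma1 (0.4046) and Psmd5 (0.4518). It was negative for the core genes Psma7 (-0.4439), Psmb7 (-0.4386) and Psmb10 (-1.39), for the ATPase genes Psmc1 (-0.5737), Psmc2 (-0.362), Psmc3 (-0.9204), Psmc4 (-0.5442) and Psmc5 (-1.237), and for Psmd1 (-0.9226), Psmd2 (-0.8478), Psmd4 (-1.216), Psmd7 (-1.105), Psmd9 (-0.7118), Psmd10 (-0.5791) and Psmd11 (-0.6729). Without midbrain MPTP-Veh replicate 4, Psma7, Psmb10, Psmc1, Psmc4, Psmd10 and Psmd11 did not pass, and Psma3, Psma4 and Psmd12 did.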

How the results depend on the processing

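Counts of subunit genes past the test moved most with the libraries fitted. For MPTP-SU against MPTP-Veh in midbrain (17 with all libraries), 0 passed with the 8 libraries of the comparison alone, 9 with those libraries without MPTP-Veh replicate 4, 9 past a 1.5-fold change, and 5 (without MPTP-SU replicate 2) to 22 (without MPTP-Veh replicate 2) when 1 library was left out, with 9 each without MPTP-SU replicate 1 or 3. For MPTP-Veh against Con in midbrain (0), DESeq2 gave 8, and leaving out 1 library gave 0 to 12. For MPTP-SU against Con in midbrain (0), DESeq2 gave 1, removal of the GC content and length trend 3, the comparison's libraries alone 5, and leaving out 1 library 0 to 7. For MPTP-Veh against Con in spinal cord, leaving out 1 library gave 0 to 5. For midbrain against spinal cord in Con (1), the trend removal gave 2, the comparison's libraries alone 4, the 1.5-fold threshold 0 and leaving out 1 library 1 to 5. The interaction (17) gave 0 with its 16 libraries alone and 9 past 1.5-fold, and the count in all 5 groups (1) gave 0 past 1.5-fold. Psma7 in midbrain MPTP-SU against MPTP-Veh reversed to 0.007 after removal of the GC content and length trend. For most of these alternatives the share of all genes was not computed, so the counts show only how the calls moved. The smaller fits hold fewer libraries. The common dispersion, edgeR's measure of spread between replicates, was 0.0512 in the midbrain fit and 0.0222 without MPTP-Veh replicate 4. The part of either in these counts was not tested.

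Replicate numbers were not taken to pair the samples. Correlations of same-numbered libraries of different treatments ran from -0.168 to 0.378 in midbrain, over 0.1 in 13 of 40 pairs, and from -0.171 to 0.229 in spinal cord (6 of 40). Between midbrain and spinal cord of the same treatment and number they ran from -0.151 to 0.304, over 0.1 in 2 of 20 pairs. The median was 0.0532, against -0.00971 for other pairs. These values do not settle whether the 2 tissues came from the same animals. With the replicate block, MPTP-SU against MPTP-Veh in midbrain gave 15, without Psmd11 and Psmd13, and the interaction gave 12.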
